A study of Mus musculus with 4 samples.

Results

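Photoreceptor synapses release glutamate through a voltage-gated calcium channel, and 6 genes of that channel and its calcium-binding partners were followed here across the cell classes of the mouse retina. Cacna1f encodes the pore of the channel Cav1.4, Cacna2d4 its extracellular alpha2delta-4 subunit and Cacnb2 a cytoplasmic beta subunit. Cabp4, Cabp1 and Cabp5 encode small calmodulin-like calcium-binding proteins. The genes were chosen by name, and all 6 were found, with 43 of the 44325 isoforms in a table of long-read isoform counts that covers 13452 Ensembl genes.

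The data came from retinas of the inbred strain C57BL6/J, taken from wild-type males, dissociated and made into 4 single-cell libraries with the 10x Genomics chemistry and sequenced as full-length cDNA on a nanopore instrument. Of these libraries, 2 had no enrichment, of which 1 was from postnatal day 40 and the other carries no age. Another was labelled CD73 enrichment, at postnatal week 8, and the last CD90.2 enrichment, at postnatal month 4. The protocol text describes removal of CD73-positive cells, mostly photoreceptors, by magnetic beads, while the design text speaks of sorting. The number of animals behind a library is not given in the sources used here. Counts were deposited for 6 columns named rod (Rod), cone (Cone), bipolar (BC), amacrine (AC), Müller glia (MG) and ganglion cells (RGC), and no column names a library. A class is therefore 1 sample, and every comparison below is a difference in size between pooled columns, without a test. Intervals are exact 95% intervals that cover counting error only.

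Column totals ran from 3509890 counts in ganglion cells to 55437340 counts in rods. Levels are given as CPM, the count divided by the column total and multiplied by 1000000. A count of 0 allows up to 3 counts, which is 0.0541 CPM in rods and 0.855 CPM in ganglion cells. Of 36 marker genes of the 6 classes, 35 were highest in their own column. The Müller glia column also held markers of cell types without a column, each set higher there than in any other column. These were pigment epithelium (9459 CPM), microglia (1508 CPM) and endothelial cells and pericytes (261 CPM), beside 44123 CPM for the Müller glia markers. Values given below for Müller glia are those of this mixed column. Long-read counts were not divided by length, so levels were compared between classes and not between genes.

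In the outer retina Cav1.4 opens at the depolarised potentials that photoreceptors hold in darkness and feeds the ribbon synapse with calcium. The alpha2delta and beta subunits bring the pore to the membrane and tune its gating. CaBP4 binds the pore subunit and shifts its opening towards more negative potentials, and loss of CACNA1F, CACNA2D4 or CABP4 function causes inherited disorders of photoreceptor transmission in people. CaBP1 and CaBP5 are relatives with the same fold of paired EF-hand domains, which act on calcium channels and other targets in inner retinal neurons.

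The 3 calcium-binding protein genes share an exon plan. In Cabp4, in Cabp5 and in the Cabp1 transcript with the longest coding sequence, 4 exons of 31, 144, 110 and 148 nt follow the first exon in this order. Most Cabp1 counts (33865 of 37387) lay in isoforms with a further cassette exon before the 31-nt exon. Cabp2, a relative also expressed in bipolar cells, had 31, 135, 110 and 148 nt, and Cabp7 had no 31-nt exon. The short exon is shown because its skipping was the largest difference between rods and cones in the isoforms of Cabp4. All 3 copies were read from GENCODE M21 transcripts on build GRCm38, with bases shared by the 3 genes in capitals.
Cabp1, chr5:115176240-115176270, minus strand: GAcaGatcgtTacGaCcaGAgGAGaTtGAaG
Cabp4, chr19:4138774-4138804, minus strand: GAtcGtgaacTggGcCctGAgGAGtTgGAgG
Cabp5, chr7:13400705-13400735, plus strand: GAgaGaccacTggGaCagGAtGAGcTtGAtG
The 3 exons were identical at 15 of 31 positions. By pair, 20 positions matched between Cabp1 and Cabp5, 19 between Cabp4 and Cabp5 and 17 between Cabp1 and Cabp4. In all 3 genes the exon is coding, and 31 leaves a remainder of 1 when divided by 3, so its loss shifts the reading frame.

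The first question was in which classes each gene was found. Cabp4 and Cacna1f were highest in rods with cones next, Cacna2d4 and Cabp5 were highest in bipolar cells, and Cabp1 and Cacnb2 were highest in amacrine cells. Over all genes with at least 10 counts, 23.6% were highest in rods, 14.1% in bipolar cells and 21.3% in amacrine cells. A gene was called for a class when its level was at least 2-fold that of the next class. By that rule 2 of 6 genes were called, Cacna2d4 and Cabp5, both for bipolar cells. Over all these genes, 39.1% were called for some class and 4.83% for bipolar cells. With rods and cones taken as 1 kind of cell, 2 of 6 genes, Cacna1f and Cabp4, had their higher photoreceptor column at least 2-fold over every other class, against 13.8% of all genes. The plot of levels by class shows the 3 patterns.

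**Figure D1:**
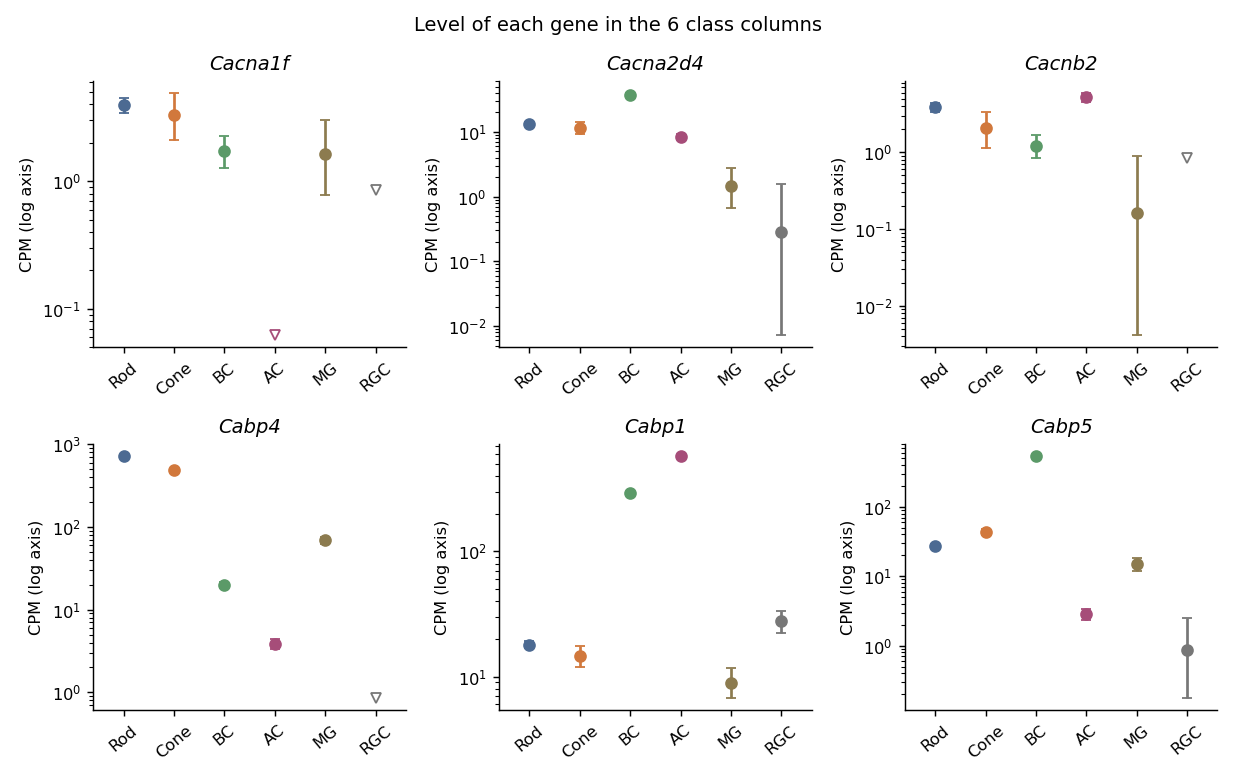
Level of each of the 6 genes (CPM, log axis) in the 6 class columns, with exact 95% Poisson intervals; open triangles mark columns with 0 counts, placed at the limit of 3 counts. Cabp4 stands at 716 CPM in rods and 489 CPM in cones, Cabp5 at 533 CPM in bipolar cells and Cabp1 at 572 CPM in amacrine cells.

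Cacna1f (ENSMUSG00000031142.17, chrX:7607083-7635196, plus strand) had 301 counts in all. Its level was 3.91 CPM in rods (217 counts, interval 3.41 to 4.47) and 3.28 CPM in cones (24 counts, 2.10 to 4.89). Bipolar cells had 1.72 CPM from 50 counts and Müller glia 1.63 CPM from 10 counts. All 10 counts in Müller glia came from 1 isoform without a model, which had 0 counts in every other column. Amacrine and ganglion cells had 0 counts, which allows up to 0.0622 CPM and 0.855 CPM. Rods and cones were not separated by counting error, with a ratio of 1.19 (0.780 to 1.90), and neither were bipolar cells and Müller glia, at 1.06 (0.530 to 2.34). Rods were above bipolar cells by 2.27-fold (1.66 to 3.15). With isoforms under 10 counts left out, the ratio of rods to cones became 2.78, since isoforms of 8 and 7 counts, all of them in cones, were then left out.

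Cacna2d4 (ENSMUSG00000041460.16, chr6:119236526-119352407, plus strand) had its highest level in bipolar cells, at 37.3 CPM from 1083 counts. Rods had 13.3 CPM from 735 counts, cones 11.5 CPM from 84 counts and amacrine cells 8.29 CPM from 400 counts. Müller glia had 1.47 CPM from 9 counts and ganglion cells 0.285 CPM from 1 count. Bipolar cells stood 2.82-fold above rods (2.56 to 3.10), and rods and cones were not separated, with a ratio of 1.15 (0.919 to 1.46).

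Cacnb2 (ENSMUSG00000057914.15, chr2:14603088-14987908, plus strand) was found at 5.22 CPM in amacrine cells from 252 counts and at 3.90 CPM in rods from 216 counts. Cones had 2.05 CPM from 15 counts and bipolar cells 1.21 CPM from 35 counts, which were not separated (1.70, 0.863 to 3.20). Of the cone counts, 14 came from 1 isoform without a model, which had 0 counts in every other column. Müller glia had 1 count and ganglion cells 0. The ratio of amacrine cells to rods was 1.34 (1.11 to 1.62). It turned to 0.665 when only isoforms with a deposited model of at least 2 exons were kept, because models were deposited only for isoforms with a count in rods.

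Cabp4 (ENSMUSG00000024842.8, chr19:4135423-4144033, minus strand) was the most photoreceptor-weighted of the 6 genes, with 92.9% of its summed CPM in rods and cones. The levels were 716 CPM in rods (39716 counts, 709 to 723), 489 CPM in cones (3572 counts, 473 to 505), 69.1 CPM in Müller glia (424 counts), 19.8 CPM in bipolar cells (574 counts) and 3.83 CPM in amacrine cells (185 counts). No count fell in ganglion cells, which allows up to 0.855 CPM. Rods were 1.47-fold above cones (1.42 to 1.52) and 36.2-fold above bipolar cells (33.3 to 39.4).

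Cabp1 (ENSMUSG00000029544.16, chr5:115168689-115194381, minus strand) had the reverse distribution. Amacrine cells had 572 CPM from 27601 counts and bipolar cells 294 CPM from 8530 counts. Ganglion cells followed at 27.6 CPM from 97 counts, rods at 17.98 CPM from 997 counts, cones at 14.6 CPM from 107 counts and Müller glia at 8.97 CPM from 55 counts. Amacrine cells were 1.95-fold above bipolar cells (1.90 to 1.99), just under the 2-fold rule, and 2.10-fold with TMM scaling (trimmed mean of M-values).

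Cabp5 (ENSMUSG00000005649.17, chr7:13398132-13408887, plus strand) was concentrated in bipolar cells, at 533 CPM from 15468 counts. Cones had 43.2 CPM from 316 counts, rods 27.7 CPM from 1535 counts and Müller glia 15.0 CPM from 92 counts. Amacrine cells had 2.82 CPM from 136 counts and ganglion cells 0.855 CPM from 3 counts. Bipolar cells were 12.3-fold above cones (11.0 to 13.8).

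Droplet libraries carry free RNA between cells, so the low values of the 3 genes with the most counts were set beside marker genes measured in the same way. Cabp4 in each other column, as a percentage of its rod level, was 68.2% in cones, 9.65% in Müller glia, 2.76% in bipolar cells and 0.535% in amacrine cells. The 6 rod markers together were at 4.14%, 5.80%, 1.73% and 0.643% of their rod level in those columns, and all 6 were at 0 in ganglion cells. Cabp4 in cones was thus far above the rod markers there, while in Müller glia, bipolar cells and amacrine cells the distance between the gene and the markers was smaller, and in amacrine cells the gene was the lower. Cabp5, as a percentage of its bipolar level, was 8.11% in cones and 5.19% in rods, beside 2.86% and 3.58% for the 6 bipolar markers, and 2.81% in Müller glia beside 3.20%. Cabp1 was at 51.4% of its amacrine level in bipolar cells, where the 6 amacrine markers stood at 0.650%. In cones it was at 2.56% beside 0.535%, in rods at 3.14% beside 1.92%, in ganglion cells at 4.83% beside 5.69%, and in Müller glia at 1.57% beside 4.19%. The part of free RNA in these low values was not tested.

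**Figure D2:**
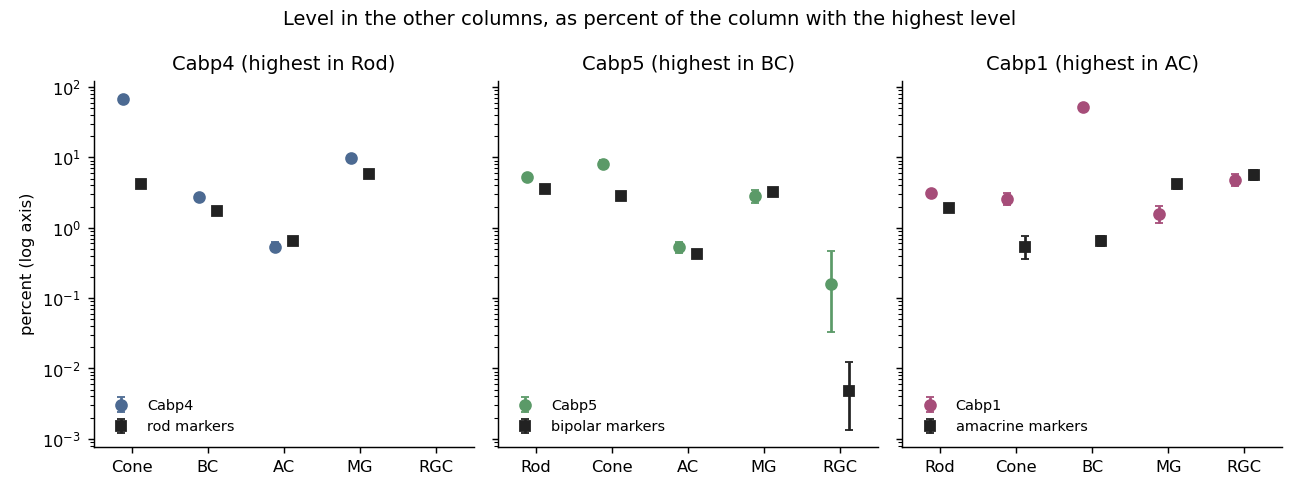
Level in each other column as a percentage (log axis) of the column where the gene is highest, for Cabp4, Cabp5 and Cabp1 (circles), beside the summed markers of that column's class (squares), with exact 95% intervals; columns with 0 counts have no point. Cabp4 in cones (68.2%) and Cabp1 in bipolar cells (51.4%) stand far above the markers, at 4.14% and 0.650%.

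The second question was which isoforms the classes used. Where both classes of a pair held 20 or more counts of a gene, a dominant isoform difference was called if the leading isoform changed and its share, or that of the other leader, shifted by 50 percentage points or more. It was called for 3 of 6 genes in some pair, Cacna2d4, Cacnb2 and Cabp1, beside 25% of all genes tested in some pair (1827 of 7317). No such difference was called for Cacna1f, Cabp4 or Cabp5. Between rods and cones 0 of the 5 genes with enough counts were called, beside 1.18% of all genes. Cacnb2, with 15 cone counts, was not tested there, and in Cacna1f the leading isoform of rods was tied in cones with an isoform seen only there, at 8 of 24 counts each.

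**Figure D3:**
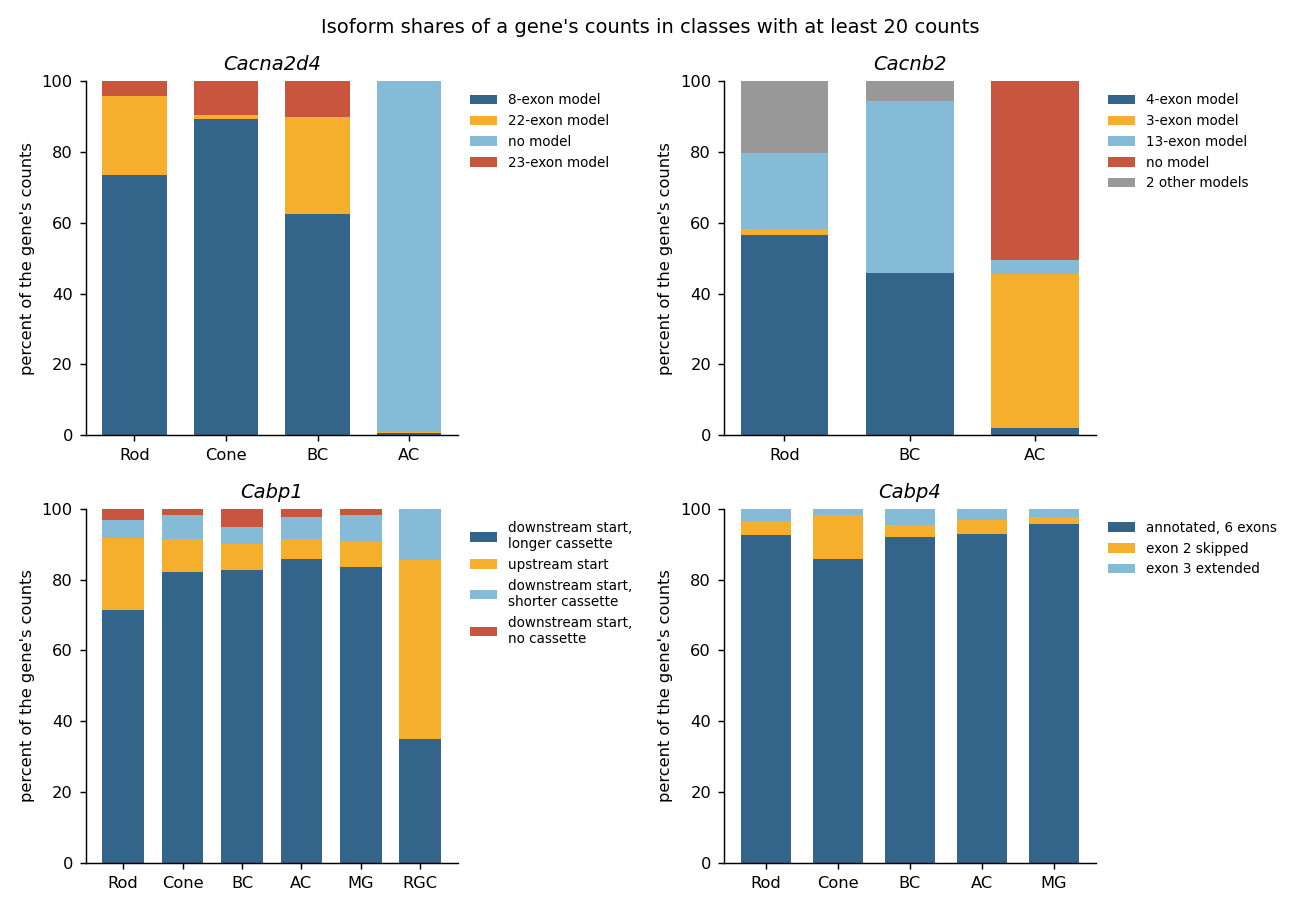
Share of each isoform in a gene's counts (percent, stacked bars from 0 to 100) for Cacna2d4, Cacnb2, Cabp1 and Cabp4, for classes that hold 20 or more counts. Amacrine cells hold a Cacna2d4 isoform without a deposited model (99.0%), and the upstream start of Cabp1 is widest in ganglion cells (50.5%).

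For Cabp4, the table held the annotated transcript of 6 exons and 2 isoforms that are not annotated. The annotated isoform made up 92.5% of the counts in rods, 85.8% in cones, 91.99% in bipolar cells, 93.0% in amacrine cells and 95.8% in Müller glia. The remainder was divided differently in the photoreceptors. Skipping of the 31-nt exon shown above made up 12.6% of Cabp4 counts in cones (449 of 3572, 11.5 to 13.7%) and 3.96% in rods (1574 of 39716, 3.77 to 4.16%). It was 3.48% in bipolar cells (2.14 to 5.33%), 3.78% in amacrine cells (1.53 to 7.64%) and 1.89% in Müller glia (0.818 to 3.68%), so cones were the only column whose interval lay apart from that of rods on the higher side. The skipping isoform joins annotated splice sites, and from the annotated start codon its frame stops after 139 codons, 336 nt before the last exon junction, in place of the 271 codons of the annotated form.

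The other Cabp4 isoform extends the third exon by 58 nt and went the opposite way, with 3.58% in rods (3.40 to 3.77%) and 1.68% in cones (1.28 to 2.16%). The end of the extended exon is shown with the added bases in capitals.
Cabp4 extended exon, chr19:4138491-4138578, minus strand: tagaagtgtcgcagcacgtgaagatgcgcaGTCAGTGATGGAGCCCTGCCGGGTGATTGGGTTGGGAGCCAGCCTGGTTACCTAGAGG
Read from the annotated start codon, this form stops after 178 codons, 308 nt before the last junction. All introns of this isoform are annotated, but not in 1 transcript together.

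**Figure D4:**
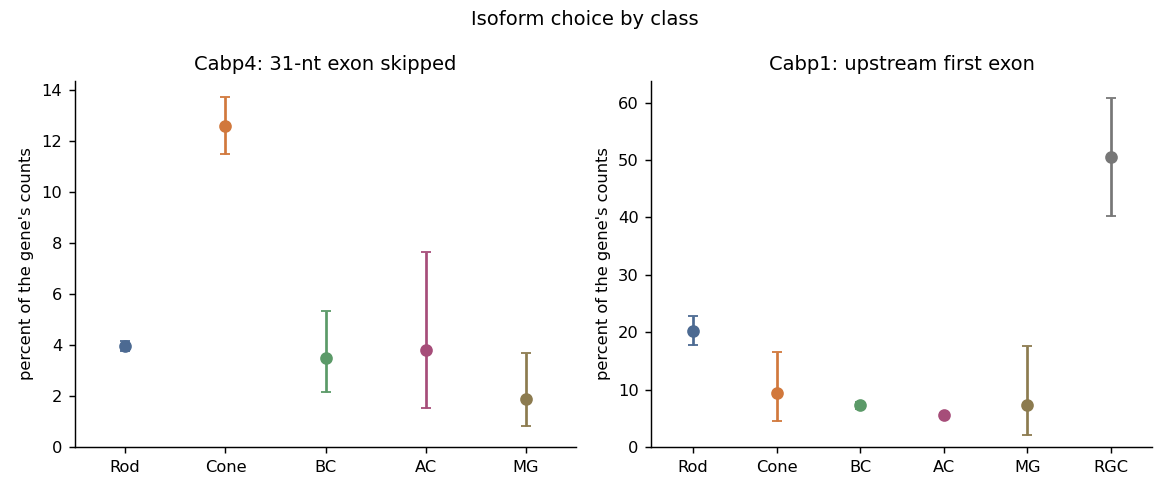
Percent of a gene's counts, with exact 95% intervals, for the Cabp4 isoform that skips the 31-nt exon (left) and for the Cabp1 isoform with the upstream first exon (right). Cones are at 12.6% for Cabp4 skipping and rods at 3.96%; ganglion cells are at 50.5% for the upstream first exon of Cabp1 and amacrine cells at 5.64%.

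All 4 isoforms of Cabp1 were annotated. One starts at an upstream first exon, which encodes the long amino-terminal part of caldendrin, the larger protein of this gene. The other 3 start downstream and have a cassette exon in a longer form of 184 nt, in a shorter form of 180 nt, or not at all. The last 2 have frames of 227 and 167 codons, the long and short forms of CaBP1. The upstream first exon made up 5.64% of the counts in amacrine cells (1556 of 27601, 5.37 to 5.92%), 7.22% in bipolar cells (6.68 to 7.79%) and 20.2% in rods (201 of 997, 17.7 to 22.8%). It was 50.5% in ganglion cells (49 of 97, 40.2 to 60.8%), 9.35% in cones (4.57 to 16.5%) and 7.27% in Müller glia (2.02 to 17.6%). The difference in the leading isoform between amacrine and ganglion cells was 50.7 percentage points and was called. It lay just over the limit of 50 points and rests on 97 ganglion counts. Between these classes, 8.19% of genes were called. The deposited model of this isoform begins inside the coding part of the annotated first exon and holds no start codon.

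Among Cabp1 isoforms with the cassette exon, the longer form made up 93.1% in amacrine cells, 94.4% in bipolar cells, 93.3% in rods and 70.8% in ganglion cells (34 of 48, 55.9 to 83.0%). It was the most abundant Cabp1 isoform in every class but ganglion cells, at 31609 of 37387 counts. The annotation marks this transcript for nonsense-mediated decay, the pathway that removes messages with an early stop. Over all genes, 0.62% had such a transcript as their most abundant isoform. Both forms are shown across the junction to the 31-nt exon, with the 4 bases that set them apart in capitals.
Cabp1 longer form, chr5:115176240-115180821, minus strand: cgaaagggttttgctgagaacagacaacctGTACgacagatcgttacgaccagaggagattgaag
Cabp1 shorter form, chr5:115176240-115180821, minus strand: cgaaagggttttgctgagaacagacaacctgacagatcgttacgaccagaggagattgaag
With the 4 bases, the frame stops after 85 codons, 404 nt before the last junction and with 4 introns after it. The call of 1 form or the other rests on 4 bases at a splice site, and how well the nanopore reads resolved them was not tested.

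Cabp5 was close to a gene of 1 isoform. Its annotated transcript, with a frame of 173 codons, held 15373 of 15468 counts in bipolar cells, 1521 of 1535 in rods, all 316 in cones and all 92 in Müller glia. The other 2 isoforms, with 90 and 20 counts, leave the gene after the fifth exon and continue into exons of the neighbouring gene Bsph1. Together they made up 0.614% of Cabp5 counts in bipolar cells (95 of 15468) and 0.912% in rods (14 of 1535, 0.499 to 1.53%). Which gene's start gave rise to each read is as the deposited models have it.

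For Cacnb2, amacrine cells and rods differed in the starts of the isoforms that had a model. A 3-exon isoform that begins at the upstream first exon at position 14604306 made up 43.7% of the counts in amacrine cells (110 of 252, 37.4 to 50.02%), 1.85% in rods (4 of 216) and 0 of 35 in bipolar cells. Of the amacrine counts with a model of at least 2 exons it made up 88%. Isoforms that begin at the first exon at position 14763129 made up 77.8% in rods (71.6 to 83.1%), 94.3% in bipolar cells (33 of 35) and 5.95% in amacrine cells (3.37 to 9.63%). These are a 4-exon transcript annotated as a retained intron, with 144 counts, and a 13-exon isoform that reaches the last exon, with 73 counts. Both starts lead to the same exon, the first from its second exon and the other directly. The first bases of that exon are shown in capitals, with the 30 bases before them from each start.
From the upstream start, chr2:14614327-14874789, plus strand: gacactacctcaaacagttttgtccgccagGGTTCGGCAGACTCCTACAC
From the downstream start, chr2:14763963-14874789, plus strand: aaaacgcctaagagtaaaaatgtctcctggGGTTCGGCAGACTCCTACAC
The difference in the leading isoform between amacrine cells and rods was 54.5 percentage points and was called, beside 10.8% of genes between these classes. A further 50.4% of the amacrine counts (127 of 252) lay in isoforms without a deposited model, so their start was not read here. The amacrine shares of both starts are thus lower limits. The most abundant isoforms without a model had 41 and 36 counts, all in amacrine cells. An annotated transcript with 11 amacrine counts was also among them, and its annotated start was not used. A 4-exon model inside the gene, which covers neither start, had 27 of 216 counts in rods (12.5%) and 2 of 35 in bipolar cells.

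For Cacna2d4, 99.0% of the amacrine counts (396 of 400, 97.5 to 99.7%) belonged to 1 isoform that had 0 of 735 counts in rods, 0 of 1083 in bipolar cells and 0 of 84 in cones. Amacrine cells were called against all 3 of these classes, each by 99 percentage points, where 10.8%, 9.22% and 8.05% of genes were called. That isoform was without a model, and its structure was not analysed here. Among the 6 genes, all 10 isoforms without a model had their counts in 1 column only, apart from 1 ganglion count of this isoform. Whether it differs in structure from the modelled Cacna2d4 isoforms was not tested. Rods, cones and bipolar cells shared the remaining 3 isoforms, with models of 8, 22 and 23 exons. The 8-exon model led in each, with 62.3% of counts in bipolar cells (59.4 to 65.2%), 73.6% in rods (70.3 to 76.8%) and 89.3% in cones (80.6 to 94.98%). The 22-exon model had 27.4% in bipolar cells, 22.0% in rods and 1.19% in cones (1 of 84).

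The 8-exon model of Cacna2d4 carries 14 nt that the annotated transcript does not have, at the start of the seventh exon. The junction is shown in both forms, with the added bases in capitals.
Annotated junction, chr6:119244311-119267830, plus strand: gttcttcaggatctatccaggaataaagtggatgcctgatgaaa
Junction of the 8-exon model, chr6:119244311-119267830, plus strand: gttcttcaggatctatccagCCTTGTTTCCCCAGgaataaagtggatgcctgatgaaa
Both ends of this intron are annotated, but not joined in 1 transcript. From the annotated start codon the frame of the 8-exon model stops after 273 codons. The models of 22 and 23 exons lack the insert and stop or run out inside the introns that follow.

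None of the 3 Cacna2d4 models reached the end of the gene. All start at the annotated first exon and end in an intron of the 38-exon annotated transcript, after exon 8, 22 or 23. The 22-exon model, with 462 counts, ends at the annotated end of another transcript of the gene. Exons 24 to 38 had 0 modelled counts. The longest covers 66.1% of the 3432-nt coding sequence.

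Models of Cacna1f did not cover the whole coding sequence either. Of its 18 isoforms, none was annotated, 15 had a model, and none of these covered the 5952-nt coding sequence. The most abundant, with 116 counts, joins the first 27 of 48 exons, ends 120 nt into the next intron and covers 55.1% of the coding sequence. It made up 32 of 50 counts in bipolar cells, 35.0% in rods (76 of 217) and 33.3% in cones (8 of 24). The next isoform, a 10-exon stretch inside the gene, had 7 of 50 counts in bipolar cells, 14 of 217 in rods and 0 of 24 in cones. Exons 28 to 41 had 0 modelled counts. Exons 42 to 48 had between 8 and 64 counts, from models that reach the annotated end by leaving out the middle of the gene.

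**Figure D5:**
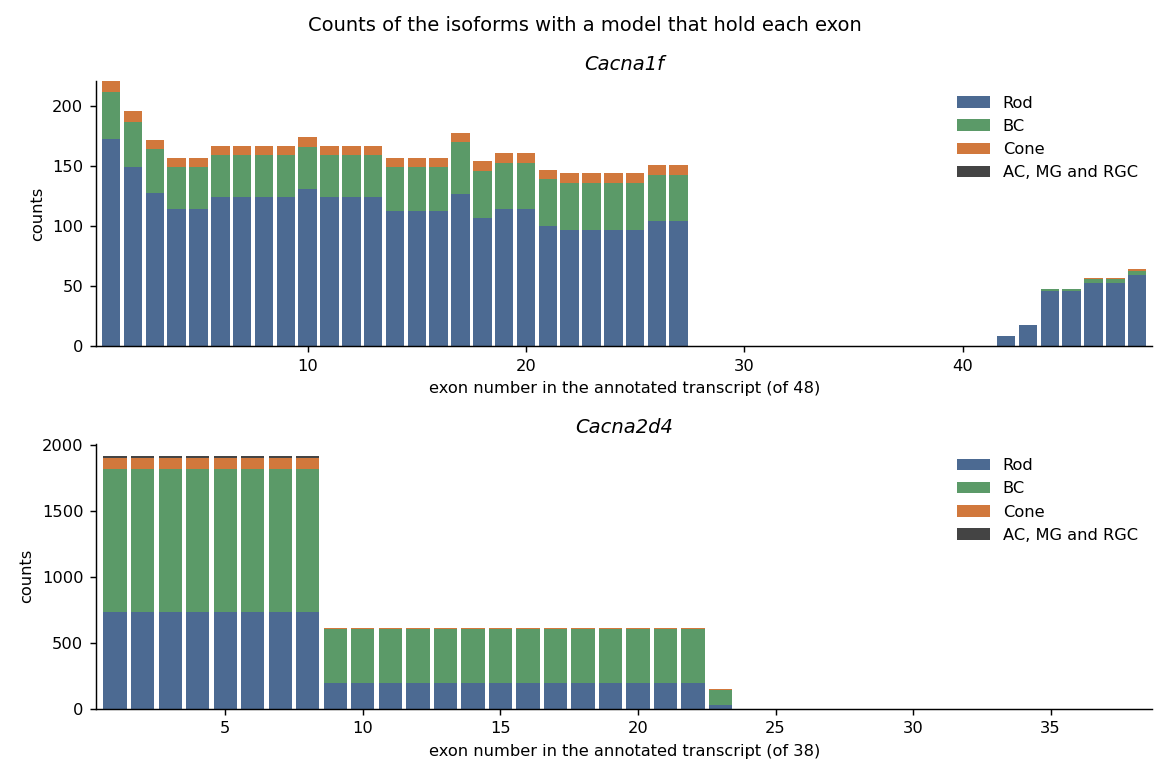
Counts of the isoforms with a model that hold each exon of the annotated transcript, for Cacna1f (48 exons) and Cacna2d4 (38 exons), stacked by class column. In Cacna1f the counts stop after exon 27 and return at exon 42; in Cacna2d4 they fall from 1915 to 613 after exon 8 and to 0 after exon 23.

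In 6 Cacna1f models, with 64 counts, the first 1 to 3 exons were joined to the last 1 to 7 exons by a single intron that left out 38 to 44 exons. Every such intron runs between annotated splice sites, and none is an annotated intron. The joint of exon 1 to exon 44 is shown from the start codon, with exon 44 in capitals.
Cacna1f exon 1 to exon 44, chrX:7607146-7632695, plus strand: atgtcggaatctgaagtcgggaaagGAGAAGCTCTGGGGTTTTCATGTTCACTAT
With a seventh model that leaves out 15 exons, such isoforms made up 30.4% of Cacna1f counts in rods (66 of 217, 24.4 to 37.0%), 8.00% in bipolar cells (4 of 50, 2.22 to 19.2%) and 4.17% in cones (1 of 24). In 3 of these models the frame from the annotated start runs to the annotated stop, with 203, 350 and 490 codons. Each rests on 7 to 15 counts, and whether the long introns come from the cells or from the library was not tested. Models were deposited only for isoforms with a count in rods, so such an intron could not be seen in any other isoform. In cones, isoforms of 8 and 7 of the 24 counts had no model, so the cone share cannot be set against that of rods. In bipolar cells, the isoforms without a model had 0 counts.

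No model with a complete annotated coding sequence was found for 3 of 6 genes, Cacna1f, Cacna2d4 and Cacnb2. Over all genes with models the share without one was 23.8%, and it was 75.3% for genes whose coding sequence is at least 3000 nt long, as those of Cacna1f and Cacna2d4 are. Likewise 2 of 6 genes, Cacna1f and Cacna2d4, had no annotated isoform in the table, beside 19.8% of all genes.

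Over the 6 genes together, 35 of 43 isoforms (81.4%) were not annotated, beside 60.3% of 40703 isoforms of all Ensembl genes. They held 6.50% of 102540 counts (6.35 to 6.66%), where all Ensembl genes had 5.58%. The share was 15.3% in cones, 9.34% in rods, 6.43% in Müller glia, 5.02% in bipolar cells and 2.27% in amacrine cells, beside 5.43%, 6.92%, 5.16%, 4.33% and 4.97% over all genes. By gene it was 100% for Cacna1f and Cacna2d4, 70.1% for Cacnb2, 8.05% for Cabp4, 0.627% for Cabp5 and 0 for Cabp1.

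Genes with the most similar distribution over the 6 classes were ranked by the overlap of class shares, which is 1 for equal profiles, among 6586 or 6587 genes with at least 500 counts. It is a description over 6 columns, and which libraries entered each is not given in the sources used here. Among the genes nearest to Cabp4 were Rcvrn (0.987), which encodes recoverin, and Tulp1 (0.986), both photoreceptor genes; the median gene overlapped Cabp4 by 0.396. Cabp5 was nearest to Sebox (0.983), Tnnt1 (0.982) and Kcnma1 (0.963), a potassium channel opened by calcium. Cabp1 was nearest to Gm11110 (0.958), Slc8a1 (0.942), a sodium-calcium exchanger, and Fezf2 (0.932). The subunits had less distinct neighbours: Anp32e (0.942), Rbks (0.931) and Psmc3ip (0.928) for Cacna1f, Dnajc27 (0.940), Usp48 (0.929) and Srrm4 (0.914) for Cacna2d4, and Ttbk2 (0.945), Otub2 (0.927) and Trpc4ap (0.912) for Cacnb2. Among the 6 genes, Cabp4 and Cacna1f had the highest overlap (0.751) and Cabp1 and Cabp4 the lowest (0.0627).

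Other genes of the calcium pathway were read from lists. None of the 7 other pore-forming subunits measured was highest in rods or cones, with 4 highest in bipolar and 3 in amacrine cells. Over all genes, 23.6% were highest in rods, 8.41% in cones, 14.1% in bipolar cells and 21.3% in amacrine cells. Between bipolar and amacrine cells, Cacna1g, Cacna1d and Cacna1a differed only by 1.01-, 1.05- and 1.28-fold, and Cacna1i and Cacna1b had 16 and 23 counts in all. Cacna1d, the pore of Cav1.3, was at 0.0722 CPM in rods and 0.725 CPM in amacrine cells. Of 11 other genes measured that are named as auxiliary subunits, 5 were highest in amacrine cells, 4 in ganglion cells and 2 in bipolar cells. These include Cacng2, Cacng3 and Cacng7 (amacrine) and Cacng5 and Cacng8 (ganglion), which were listed by gene name only. Whether the products of these Cacng genes serve calcium channels was not tested. Over all genes, 13.2% were highest in ganglion cells, and 1 of the 4, Cacng8, was at 0.285 CPM there, under the limit of 3 counts. The auxiliary subunits included Cacna2d3, at 1368 CPM in bipolar cells and 30.8 CPM in rods, and Cacnb3, at 102 CPM in ganglion cells and 0.325 CPM in rods. Cabp2 was at 341 CPM in bipolar cells, 21.5-fold over the next class, and Unc119, which encodes a CaBP4-binding protein of the photoreceptor terminal, was highest in rods at 11774 CPM with cones at 6747 CPM. Of 10 active zone genes, 3 were highest in amacrine cells, 2 in cones, 2 in ganglion cells and 1 each in bipolar cells, rods and Müller glia. Over all genes, 8.41% were highest in cones. Rims2 was at 20.0 CPM in cones and 10.9 CPM in rods, a ratio of 1.83. Of 7 pumps and exchangers, 3 were highest in amacrine cells, 2 in cones and 1 each in bipolar cells and Müller glia. Slc8a3 was at 13.1 CPM in cones beside 2.85 CPM in rods, and Atp2b1, also highest in cones, was 1.40-fold over the next class. The 2-fold rule was also applied with the other classes raised to at least 3 counts, and it then called 27.8% of all genes for some class. It called 2 of 7 pore-forming subunits, 7 of 11 genes of the auxiliary list and 2 of 4 relatives of CaBP4 and Unc119. Of the active zone genes it called 1 of 10, and of the pumps and exchangers 3 of 7. The median of the fold over the next class, on the same footing, was 1.01 for the pore-forming list, 2.38 for the auxiliary list, 5.24 for the 4 relatives of CaBP4 and Unc119, 1.32 for active zone genes, 1.72 for pumps and exchangers, 1.71 for the 6 genes and 1.37 for all genes.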

How the data were processed

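Retinal cells of 4 libraries were measured by nanopore sequencing of 10x Genomics cDNA. The authors deposited whole-number counts per isoform, pooled over libraries into 6 class columns, and transcript models of isoforms with a count in rods; 0 sample columns were left unused. Whether counts are reads or molecules, how cells were typed and how doublets were treated is not given in the sources used here. The build is mm10 (GRCm38), per the submitters' processing notes. Counts were summed per gene, matched to symbols by identifier, and scaled to 1000000 per column with Python 3.11.15 and pandas 2.3.3; Poisson and Clopper-Pearson 95% intervals came from scipy 1.17.1. Isoforms with an Ensembl transcript identifier were taken as annotated. Models were compared with GENCODE M21, and sequences and frames were read from its transcripts. Alternative scaling factors (TMM and median of ratios) were computed in numpy, with no test. The rules were tested on simulated data. Columns name no library, so the count test planned for libraries was not made. All 6 genes were named, with isoforms of at least 10% in a class of 20 counts, the 3 nearest genes by class profile (1 is not reported here), and related lists. Members and lists were chosen with earlier results of these data known. Amino acid sequences were not used here.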

Additional observations from a re-analysis of the deposited data

How the results depend on the processing

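No paired analysis was possible because each column is a cell class with no library named, and for the same reason no replicate could be left out. Of 154 alternative values, 128 stayed within counting error (or, for counts of genes, within 1.5 times), 25 moved beyond it and 1 reversed: the ratio of Cacnb2 in amacrine cells to rods, 1.34, became 0.665 with models of at least 2 exons, which drop isoforms absent from rods. Part of the 128 could not change, since a setting that drops or joins no isoform of a gene leaves its values as they were. Summing isoforms of the same intron chain left all 19 isoform shares unchanged. By contrast, TMM and median-of-ratios scaling each moved 3 of the gene levels and left 3 the same. The ratio of Cacna1f in rods to cones became 2.78 with isoforms of at least 10 counts and 3.18 with models of at least 2 exons. TMM scaling gave ratios of 3.11 for Cacna2d4 (bipolar to rod), 2.10 for Cabp1 (amacrine to bipolar) and 1.32 for Cabp4 (rod to cone); scaling by the median of ratios gave 1.62 for Cabp1, 1.25 for Cabp4 and 10.8 for Cabp5 (bipolar to cone). These scalings shifted whole columns, at most by -0.31 (ganglion cells) and 0.31 (Müller glia) on the log2 scale. At 4-fold, 1 of 6 genes was called for a class, and 20.8% of all genes. Genes with a dominant isoform difference numbered 2900 (35.4% of those tested) with 10 counts in each class, 486 (10.3%) with 100 counts and 2810 (38.4%) at 25 percentage points, beside 1827. These settings called 4 of 6, 2 of 5 and 3 of 6 of the genes followed here; without the ganglion column 2 of 6 were called, beside 19.8%. The share of the 3-exon Cacnb2 model in amacrine cells became 88% with models of at least 2 exons. The unannotated share of the 6 genes' counts was 5.59% when parts of annotated intron chains counted as annotated, and 6.16% with isoforms of at least 50 counts. Of the 18 nearest genes, 14 remained with the cosine of CPM and 11 with a minimum of 100 counts. Depth limits Cacna1f, Cacnb2 and every value in ganglion cells, where the column total was 3509890 counts.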

Other observations

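Promoter windows of 300 bases (250 before to 50 after the start, RefSeq, GRCm38.p6) were given for 4 of the 6 genes, in 6 windows. They were searched on both strands for TAATCC, the core letters bound by the homeodomain factors CRX and OTX2 of photoreceptors and bipolar cells, whose reverse complement is GGATTA. The window of Cabp5 (chr7:13397905-13398204, plus strand) held 2 matches, and the windows of Cabp1, Cacna1f and Cacnb2 held 0. No window was given for Cabp4 or Cacna2d4. The Cacnb2 windows (chr2:14604056-14604355 and chr2:14823842-14824141) do not cover the start at position 14763129, which led in rods and bipolar cells. Over all 32851 windows, 7.06% held at least 1 match and 0.359% held 2 or more. A match is only a run of letters in this window.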
